A study of Mus musculus with 2 samples.

Results

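The genes described here encode the proteins of the cytosolic ribosome and their close copies, in open chromatin maps of mouse testis. Members were taken from the GENCODE M21 annotation as protein-coding genes whose symbols begin with Rpl or Rps and a digit, without the Rps6k kinases. They numbered 88 of 21911 protein-coding genes. Of these, 73 are core genes, 1 for each ribosomal protein with such a symbol, 43 of the large subunit (Rpl) and 30 of the small subunit (Rps). Another 3 are tissue-restricted paralogs (Rpl10l, Rpl39l and Rpl3l), and the last 12 are other copies and relatives. Rps4l, a copy related to Rps4x, is annotated as a transcribed processed pseudogene, so it is not among the 88 and its values are given beside theirs. DNase-seq, which reads the ends that DNase I leaves in accessible DNA, had been run on whole testis of male B6CASTF1/J mice aged 14 days, hybrids of a C57BL/6 parent and a castaneus-derived parent. The only group had 2 libraries, replicate 1 from tissue of 3 males and replicate 2 from tissue with no stated number of animals, and no treatment or other genotype was compared. Both carry 1 donor label and came from The Jackson Laboratory, so the spread between them may be in part technical.

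Ribosomal protein genes are transcribed in all growing cells, and each core gene supplies 1 protein of a particle in which nearly all proteins occur in equal number. Their mRNAs begin with a pyrimidine-rich tract that lets growth signals set their translation. Several X-linked core genes have autosomal copies. In mouse, the X chromosome is silenced in male germ cells during meiotic prophase, and Rpl10l, which lacks introns, takes the place of Rpl10 there. Rpl39l replaces Rpl39 in a ribosome of male germ cells, and Rpl3l is known from heart and skeletal muscle.

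The promoter value of a gene is the highest peak value, in the authors' own units per library, among peaks within 1000 bp of any of its annotated starts, or 0 where none was listed. The longer of the deposited lists gave 101172 peaks for replicate 1 and 117359 for replicate 2, with median values of 0.543 and 0.506, and footprints numbered 269247 and 349555. The depth in reads is unknown, so no counting interval is given, and with a single group no test between groups was possible. Errors are SDs over the 2 libraries. Of the markers checked, all 6 of meiotic germ cells, all 6 of spermatogonia, all 6 of Sertoli cells and 5 of 6 of Leydig cells had a promoter peak in both libraries. Hsd3b1, a steroidogenic enzyme, had none. The share was 1 of 4 for leukocytes (Ptprc, 0.323 and 0.196; no peak at Cd3e or Lyz2, among others) and 0 of 4 for erythroid cells (Alas2, Hba-a1, Hbb-bs and Ermap). It was 0 of 4 for liver (no peak at Alb, Apoa1 or Cyp2e1, and Ttr at 0.657 in replicate 2 alone). For skeletal muscle it was 2 of 4, Ckm (3.73 and 3.35) and Actn3 (8.35 and 7.64), with no peak at Acta1 or Mb. The medians were 6.34 and 5.50 for the meiotic markers and 2.07 and 2.05 for the Sertoli markers.

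Stretches of 150 bases at the starts of the paralogs and of their core relatives show where the open sequence was protected from cutting. They are RefSeq promoter sequences of build GRCm38.p6, the same as mm10, read 5′ to 3′ from 130 bases before the RefSeq start to 20 bases from it. How castaneus-derived alleles of these hybrids differ from the reference was not examined, for these stretches or for the motifs, runs and words below. Capitals mark bases inside a footprint, a short protected stretch, in both libraries. The table of RefSeq promoters matched 63 of the 88 members, of which 54 were core genes, 3 paralogs and 6 other copies. Rpl10l lies at chr12:66284382-66284531 (minus strand), Rpl10 at chrX:74270686-74270835 (plus strand), Rpl39l at chr16:10170098-10170247 (plus strand), Rpl39 at chrX:37085203-37085352 (minus strand), Rpl3l at chr17:24727696-24727845 (plus strand) and Rps4x at chrX:102189372-102189521 (minus strand).
Rpl10l: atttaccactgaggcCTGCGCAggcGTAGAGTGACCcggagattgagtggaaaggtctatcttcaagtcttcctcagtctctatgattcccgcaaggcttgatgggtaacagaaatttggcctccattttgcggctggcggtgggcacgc
Rpl10: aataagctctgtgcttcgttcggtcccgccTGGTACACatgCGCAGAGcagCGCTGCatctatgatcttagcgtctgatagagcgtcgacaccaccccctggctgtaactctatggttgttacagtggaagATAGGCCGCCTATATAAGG
Rpl39l: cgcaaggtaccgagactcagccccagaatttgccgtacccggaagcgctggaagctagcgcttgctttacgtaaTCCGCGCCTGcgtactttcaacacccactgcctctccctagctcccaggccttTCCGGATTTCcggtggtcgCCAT
Rpl39: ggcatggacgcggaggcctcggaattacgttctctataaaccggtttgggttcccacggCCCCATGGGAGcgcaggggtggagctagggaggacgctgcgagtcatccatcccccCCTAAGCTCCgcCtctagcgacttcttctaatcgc
Rpl3l: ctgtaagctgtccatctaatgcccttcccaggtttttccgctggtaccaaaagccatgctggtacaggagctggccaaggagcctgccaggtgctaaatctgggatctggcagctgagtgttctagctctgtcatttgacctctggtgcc
Rps4x: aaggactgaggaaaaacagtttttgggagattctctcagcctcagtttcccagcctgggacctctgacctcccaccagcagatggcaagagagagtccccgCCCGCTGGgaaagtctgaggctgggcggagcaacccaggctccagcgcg
The Rpl3l stretch holds no capital, since no footprint was listed there in either library. Those of Rpl10l and Rpl10 hold 18 and 52 footprint bases in replicate 1 and 49 and 51 in replicate 2.

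Of the 88 members, 80 had a promoter peak in both libraries (90.9%), against 68.7% of all protein-coding genes (15057 of 21911). All 73 core genes were open in this sense. Of the paralogs 2 of 3 were, Rpl10l and Rpl39l, and of the other copies and relatives 5 of 12. No member had a peak in a single library. The 8 members without a peak were Rpl3l and 7 gene copies, namely Rpl10-ps3, Rpl36-ps4, Rpl36a-ps1, Rpl9-ps1, Rpl9-ps6, Rps12-ps3 and Rps27rt, the last a retrogene of Rps27. Each of these 8 also had 0 footprints in its windows in both libraries, and no base there had a false discovery rate below 0.05 in the authors' track of cut rates.

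Copies resemble their parents in sequence, so the share of 32-base words in the windows that occur once in the genome was also computed. It was lowest at Rpl10-ps3 (61.2%), Rpl9-ps6 (66.9%), Rps27rt (71.6%) and Rps12-ps3 (71.8%). Rpl36a-ps1 had 79.0%, Rpl9-ps1 85.8%, Rpl36-ps4 86.2% and Rpl3l 96.7%. Core genes had a median of 88.9% and a range of 70.1 to 99.8%, with Rpl37a lowest, and all of them had peaks. The first 2 of the copies therefore lay below every core gene and the other 6 members without a peak lay inside the core range. How the authors placed reads from repeated sequence was not stated, and its part in the absence of peaks was not tested.

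**Figure D1:**
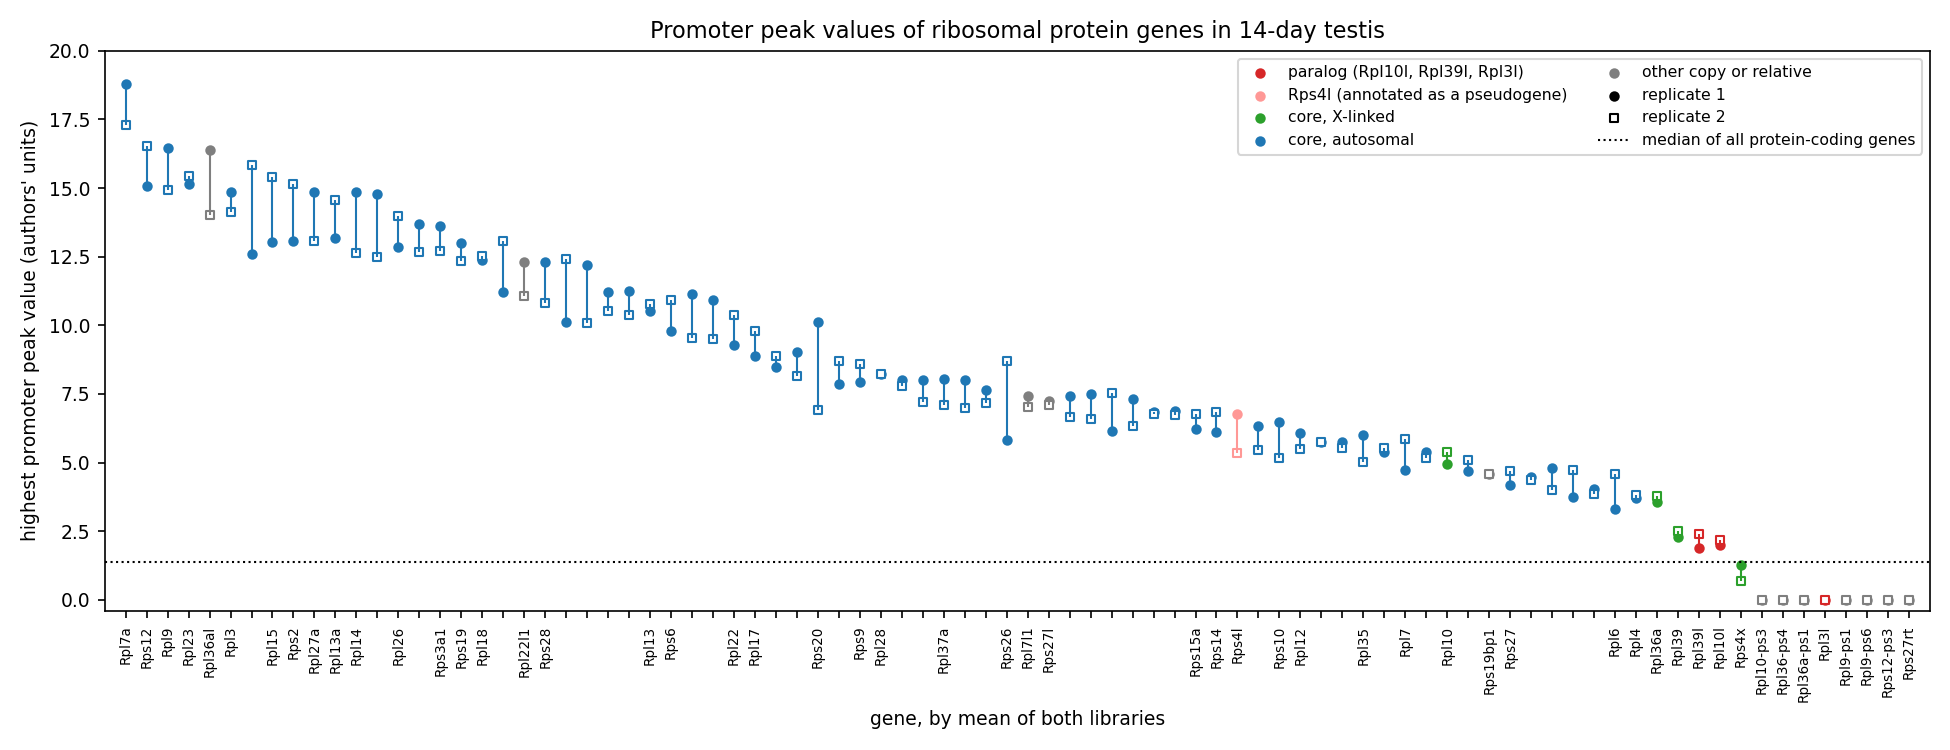
Highest promoter peak value (vertical axis, authors' units) of 85 of the 88 members and Rps4l (horizontal axis, ordered by the mean of both libraries, with the genes named in the text labelled), with filled circles for replicate 1, open squares for replicate 2 and a line joining them; the dotted line is the median of all protein-coding genes (1.36). Of the core genes, Rps4x alone lies under the dotted line, the paralogs Rpl39l and Rpl10l lie at the low end of the open genes, and the 8 members without a peak lie at 0.

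The median promoter value of the paralogs was 1.90 in replicate 1 and 2.19 in replicate 2, against 8.04 and 8.17 for core genes. As means of both libraries these were 2.04 ± 0.21 for paralogs and 8.11 ± 0.089 for core genes (SD, n = 2). The paralog median was the value of Rpl39l in replicate 1 and that of Rpl10l in replicate 2, so its SD is not the spread of a single gene. All 88 members had a median of 7.43 ± 0.45, against 1.36 ± 0.089 for all protein-coding genes. Of protein-coding genes with a peak in both libraries the medians were 4.04 and 3.68, and 67 of 73 core genes were above these in both libraries. Only Rps4x was below the median of all genes, in each library. Core genes were seldom among the very strongest promoters. None stood among the top 1% of all genes by mean value, 8 (10.96%) among the top 5%, 23 (31.5%) among the top 10% and 52 (71.2%) among the top 25%.

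Although their products are needed in equal number, the core promoters spanned a wide range. The middle of the distribution, between quartiles, ran from 6.00 to 12.3 in replicate 1 and from 5.55 to 12.5 in replicate 2. The SD over core genes of the mean value was 3.90, against a median SD between libraries of 0.634 for a single core gene. Across the 73 genes the values of both libraries were correlated, with Pearson's r of 0.95 on the log2 scale and Spearman's rho of 0.945, as a description of libraries of the same tissue. Large-subunit genes had medians of 8.01 and 7.22 and small-subunit genes 9.13 and 8.70, with ranges that overlapped over most of their extent.

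Among the 5 highest core promoters were those of Rpl7a, Rps12, Rpl9 and Rpl23. Rpl7a, a large-subunit protein gene on chromosome 2 (26910764 to 26913318), had 18.8 in replicate 1 and 17.3 in replicate 2. Its peak lay in a window of Med22, the neighbouring gene for a Mediator subunit, too. Rps12, of the small subunit, had 15.1 and 16.5, and its peak was not shared with another gene. Rpl9 had 16.5 and 14.9, with a peak shared with Lias, a lipoic acid synthase gene, and Rpl23 had 15.2 and 15.4. These 4 stayed above 14 in both libraries.

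The 5 lowest core promoters were Rps4x, Rpl39, Rpl36a, Rpl4 and Rpl6, and the first 3 of these are X-linked. Rpl4, a large-subunit gene on chromosome 9, had 3.71 and 3.82. That peak was centred at -465 and -475 bp from the nearest start and was shared with Zwilch, a kinetochore gene, while the peak at its own start had 1.98 and 2.31. Rpl6 had 3.31 and 4.58, with no other gene at its peak. The peak of Rpl6 lay at its start, its centre at -1 and -11 bp.

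The 4 X-linked core genes had low values. Their medians were 2.93 in replicate 1 and 3.15 in replicate 2, a mean of 3.04 ± 0.15 (SD, n = 2), against 8.49 and 8.60, a mean of 8.55 ± 0.080, for the 69 autosomal core genes. Rpl10, whose protein is needed for the joining of ribosomal subunits, had 4.96 and 5.39. Rpl36a had 3.58 and 3.77, and Rpl39, whose protein lines the exit tunnel of the large subunit, 2.29 and 2.53. Rps4x, of the small subunit, was lowest at 1.28 and 0.691. In this order, neighbouring X-linked genes differed by more than the gap between libraries, and all 4 lay below the lower quartile of the core genes in both libraries. The lowest autosomal values, 3.31 in replicate 1 and 3.82 in replicate 2, were below those of Rpl10 in both libraries, so the groups overlapped.

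Promoters of other X-linked genes were low as well. The 948 X-linked protein-coding genes had medians of 0.384 and 0.362, against 1.42 and 1.30 for all protein-coding genes, and 60.3% of them had a peak in both libraries. Among the 572 X-linked genes with a peak in both, the mean value of Rpl10 was above 91.1% of genes, that of Rpl36a above 79.2%, that of Rpl39 above 64.7% and that of Rps4x above 40.6%. Male cells carry a single X and pairs of autosomes, and the chromosome and its copy number cannot be told apart in these values. In whole tissue, fewer cells with an open promoter and less opening per cell cannot be told apart either.

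Rpl10l, the intronless copy of Rpl10 on chromosome 12 (66283379 to 66284401), had a promoter value of 2.01 in replicate 1 and 2.19 in replicate 2, and Rpl10 had 4.96 and 5.39. Both libraries gave nearly the same ratio of Rpl10l to Rpl10, 0.404 and 0.406 (0.405 ± 0.0014, SD, n = 2). The peak of Rpl10l was centred at -39 bp from its single annotated start in both libraries. Its window of 2001 bp held 6 and 9 footprints, and those of Rpl10, 3026 bp in all, held 13 and 13. Per kb of window these were 3.00 and 4.50 for Rpl10l and 4.30 and 4.30 for Rpl10, so their order differed between libraries. Words found once in the genome made up 71.9% of the Rpl10l windows and 83.0% of those of Rpl10.

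Rpl39l, on chromosome 16 (10170226 to 10174911), had 1.90 and 2.40, and Rpl39 had 2.29 and 2.53. The ratio was 0.829 and 0.949 (0.889 ± 0.085), below 1 in both libraries. A second Rpl39 peak had 1.98 and 2.14, and Rpl39l was above it in replicate 2 alone. In both libraries this peak (37085141 to 37085420) ended at the base before the highest one (37085421 to 37085600). The promoter value counts the highest peak alone, so the ratio leaves out this adjoining peak. The Rpl39 stretch shown above lies in this second peak and outside the highest one. The gap between the genes in replicate 2 was smaller than the difference between the libraries for Rpl39l alone. By highest peak, the order of this pair therefore does not stand clear of the replicate spread. Footprints numbered 4 and 5 at Rpl39l and 11 and 10 at Rpl39, or 2.00 and 2.50 per kb of window against 4.90 and 4.45. All 32-base words of the Rpl39l windows occurred once in the genome.

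Rpl3l, on chromosome 17 (24727820 to 24736143), had no peak and no footprint in either library, whereas Rpl3, whose protein lies near the peptidyl transferase centre, had 14.9 and 14.1. Rpl3l lies downstream of the core gene Rps2 (24718116 to 24721929) on the same strand, and Rps2 had 13.1 and 15.2. The highest peak of Rpl3 was at an internal annotated start, 8438 and 8428 bp from the 5′ end of the gene. Counted at its 5′ end alone, Rpl3 had 2.35 ± 0.65 (SD, n = 2).

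Rps4l stood apart from the annotated paralogs. This copy on chromosome 6 (148354656 to 148355598) had 6.78 in replicate 1 and 5.35 in replicate 2, and Rps4x had 1.28 and 0.691. Rps4l was thus higher in both libraries, by ratios of 5.28 and 7.74 (6.51 ± 1.7, SD, n = 2). Its highest peak was centred at -36 and -26 bp from a start, its windows held 10 and 9 footprints, and 87.5% of their words occurred once in the genome. Rps4x, at 94.8%, had 3 and 7 footprints. In replicate 1 the highest Rps4x peak was at the start (1.28), and in replicate 2 a peak at -326 bp from it (0.691) was slightly above the one at the start (0.679).

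**Figure D2:**
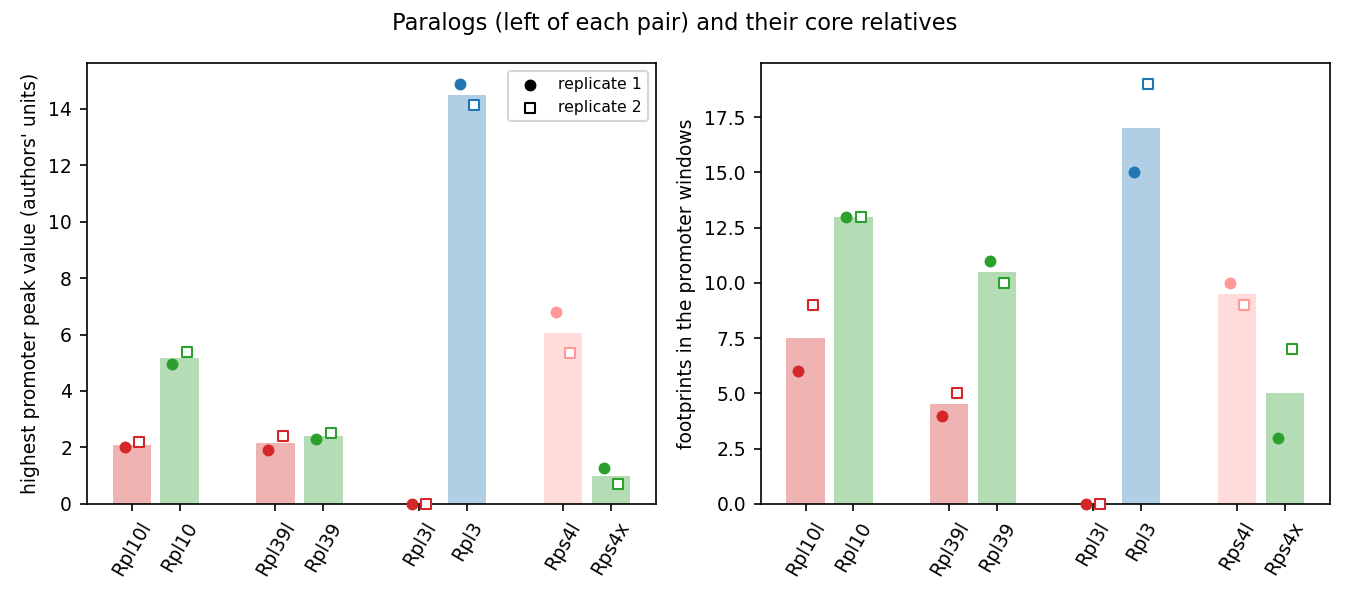
Highest promoter peak value (left, authors' units) and number of footprints in the promoter windows (right) for each paralog, drawn left of its core relative; circles are replicate 1, squares replicate 2 and bars their mean. Rpl10l and Rpl39l lie below Rpl10 and Rpl39 in both panels, Rpl3l is at 0 beside Rpl3, and Rps4l lies above Rps4x in both libraries. The footprint numbers are not scaled by window length, which differs between genes.

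Relatives outside the paralog list gave other pairs with an X-linked or autosomal core gene. Rpl36al, an autosomal copy of the X-linked Rpl36a on chromosome 12, had 16.4 and 14.0, and Rpl36a had 3.58 and 3.77. The ratio was 4.58 and 3.71, and the Rpl36al peak was shared with Mgat2, a glycosyltransferase gene. Rpl22l1, the partner of Rpl22, had 12.3 and 11.1, at ratios of 1.33 and 1.07 to its core gene. Rpl7l1 had 7.41 and 7.01, at ratios of 1.56 and 1.20 to Rpl7, and Rps27l, which p53 is known to induce, had 7.24 and 7.11, at ratios of 1.73 and 1.51 to Rps27. The highest Rpl7 peak was not the same in both libraries, and at least 1 of these peaks was shared with Rdh10. That of Rps27 was shared with Rab13. Rps19bp1 had 4.59 in both libraries. Its protein binds Rps19 and is no part of the ribosome, but its symbol meets the rule.

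Annotated pseudogenes with Rpl or Rps symbols mostly had no promoter peak. Of 289 without Rps4l, 18 (6.23%) had a peak in both libraries, against all of the core genes. Another 12 had a peak in 1 library alone, and 259 had none. Rpl29-ps2 had the highest values of the 289, 3.12 and 3.80, at a peak shared with Akr1e1. Rps15a-ps2 followed at 1.48 and 1.81, but its peak was centred at -1069 bp from its start in both libraries. Only the edge of that peak lay within 1000 bp of the start. The mean of Rps4l, 6.06 ± 1.0 (SD, n = 2), was above that of every one of the 289 pseudogenes. The count of 18 fell to 9 with the shorter peak list and reached 43 in windows of 2500 bp.

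The highest core peak was usually narrow and close to a start. Its median width was 200 bp in each library, against 220 bp for all protein-coding genes with a peak in both. The median position of its centre was -23 bp from the nearest start in replicate 1 and -30 bp in replicate 2. The centre was within 100 bp of a start for 67 of 73 core genes (91.8%) in replicate 1 and 65 (89.0%) in replicate 2, against 67.6% and 65.9% of genes with a peak in both. For 15 core genes (20.5%) the highest peak also lay in a window of another protein-coding gene, against 18.7% of genes with a peak in both. One of these other genes is RPS10-NUDT3, a readthrough of Rps10 itself.

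Between libraries, the core genes moved little as a group. The median log2 ratio of replicate 2 to replicate 1 was -0.03, with 33 genes higher in replicate 2 and 40 higher in replicate 1, and over all protein-coding genes with a peak in both it was -0.07. Rps26 had 5.82 in replicate 1 and 8.70 in replicate 2, a log2 ratio of 0.58, and Rpl6 followed at 0.47. Rps4x had the lowest ratio (-0.90). Rps20, of the small subunit, had 10.1 and 6.93, a log2 ratio of -0.55. For these genes the value depends on the library. So does their place among the core genes, except for Rps4x, which was lowest in both libraries.

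Paralog windows held a median of 4 footprints in replicate 1 and 5 in replicate 2, and core windows 9 and 10. All protein-coding genes had 5 and 6, and those with a peak in both libraries 8 and 9. Core windows were not longer than those of genes with a peak in both, at a median of 3282 bp against 4145 bp. The paralog windows spanned 2001 bp at Rpl10l, 2003 bp at Rpl39l and 4356 bp at Rpl3l. Counts of footprints are not scaled by this length, and its part in them was not tested. The most footprints by mean were at Rpl18, with 12 and 39, Rpl7, with 23 and 18, and Rps14, with 21 and 18. At Rpl18 the windows held 2 peaks in replicate 1 and 7 in replicate 2, so its number rests on replicate 2, the library with more peaks and footprints in all. Rps4x (3 and 7), Rpl28 (4 and 6) and Rpl12 (6 and 4) had the fewest. Across core genes the number of footprints did not follow the promoter value, with Spearman's rho of -0.046 and 0.027.

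**Figure D3:**
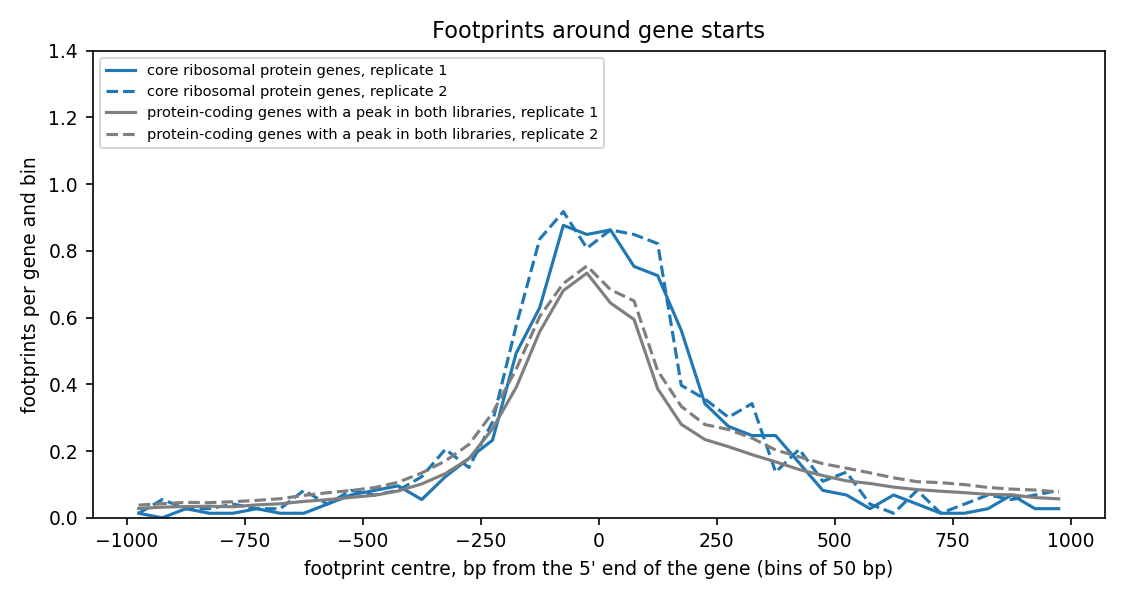
Footprints per gene in bins of 50 bp (vertical axis) against the distance of the footprint's centre from the 5′ end of the gene (horizontal axis, bp) for core genes (blue) and for protein-coding genes with a peak in both libraries (grey); solid lines are replicate 1 and dashed lines replicate 2. From 100 bp before to 100 bp after the 5′ end, core genes have 0.753 to 0.918 footprints per gene and bin and the other curve has 0.594 to 0.755.

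Part of a palindromic promoter element was found in core promoters more often than in promoters at large. Its 8 letters TCTCGCGA, searched on both strands from 250 bases before to 50 after the RefSeq start, were in 10 of 54 core promoters (18.5%), against 2.18% of promoters with a peak in both libraries and 1.56% of all 16522 promoters. The full palindrome counts as 2 overlapping matches. Promoters of mitochondrial ribosomal proteins, which build the separate ribosome of mitochondria, held it in 1.45%. The 10 genes were Rpl7a, Rpl12, Rpl26, Rpl27a, Rpl35, Rps3a1, Rps6, Rps15a, Rps19 and Rps28. Of 16 matches there, 13 (81.3%) overlapped a footprint in replicate 1 and 13 in replicate 2, against 80.5% and 79.6% of matches in all promoters with a peak in both. Core genes with these letters had a median promoter value of 12.6 and 11.6, those without them 8.03 and 8.41. The same order held over all promoters with a peak in both, at 9.68 and 9.29 with the letters and 4.22 and 3.83 without. In each stretch below the 8 letters, on either strand, lie in capitals, which again are footprint bases of both libraries. In Rpl7a they form a single match and not the full palindrome. The letters of Rps15a, with promoter values of 6.21 and 6.76, also lie in capitals, but its stretch is not shown. Rpl7a lies at chr2:26910677-26910826 (plus strand), Rps6 at chr4:86857348-86857497 (minus strand), Rpl26 at chr11:68901436-68901585 (plus strand) and Rps19 at chr7:24884462-24884611 (plus strand).
Rpl7a: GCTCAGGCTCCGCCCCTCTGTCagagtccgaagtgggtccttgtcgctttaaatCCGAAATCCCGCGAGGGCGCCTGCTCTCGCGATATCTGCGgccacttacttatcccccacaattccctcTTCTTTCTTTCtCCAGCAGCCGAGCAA
Rps6: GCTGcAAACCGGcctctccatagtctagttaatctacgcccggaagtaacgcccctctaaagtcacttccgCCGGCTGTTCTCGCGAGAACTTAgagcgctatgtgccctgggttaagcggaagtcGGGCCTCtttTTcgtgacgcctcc
Rpl26: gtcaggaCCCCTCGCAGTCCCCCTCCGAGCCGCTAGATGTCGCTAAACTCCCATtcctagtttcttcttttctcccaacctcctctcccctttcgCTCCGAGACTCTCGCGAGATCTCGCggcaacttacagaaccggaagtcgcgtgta
Rps19: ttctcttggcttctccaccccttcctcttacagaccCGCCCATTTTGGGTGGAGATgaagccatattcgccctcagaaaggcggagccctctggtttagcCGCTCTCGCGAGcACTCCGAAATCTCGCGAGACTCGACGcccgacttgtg
Rps6, the target of the S6 kinases, had promoter values of 9.78 and 10.9, Rpl26 had 12.8 and 14.0, and Rps19, mutated in human Diamond-Blackfan anaemia, had a mean of 12.7 ± 0.45 (SD, n = 2).

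Other promoter words were counted in the same way. The ETS core CCGGAA was in 27 of 54 core promoters (50%), against 26.2% of those with a peak in both and 19.6% of all, but it was in 56.5% of mitochondrial ribosomal protein promoters. The cAMP response element TGACGTCA was in 5 core promoters (9.26%), those of Rpl13, Rpl18, Rpl26, Rpl27a and Rps9, against 3.16% and 2.43%. The YY1 word AAGATGGC was in 4 core promoters (7.41%), against 4.23% and 3.29%, but it was in 17.4% of mitochondrial ribosomal protein promoters. The SP/KLF word GGGCGG (57.4%, against 63.5% and 48.0%), the NFY word CCAAT (29.6%, against 38.8% and 38.7%) and the NRF1 word GCGCATGC (3.70%, against 5.21% and 3.76%) were near or below their share in promoters with a peak in both. The letters TATAAA on the gene's strand within 40 bases before the start were in 0 of 54 core promoters, against 1.501% and 3.18%. Rpl22l1 had this word there, and it overlapped a footprint in both libraries. These are matches of letters in 1 RefSeq window per gene, and 19 core genes had no sequence in the table.

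Pyrimidine runs were searched at the annotated start, since the start that the mRNAs use was not measured here. A run of 5 or more pyrimidines that begins with C and reaches within 5 bases of the RefSeq start was in 28 of 54 core promoters (51.9%), against 25.9% of promoters with a peak in both and 25.3% of all. Runs of 8 or more were in 18 (33.3%), against 8.18% and 7.82%, and in 10.1% of mitochondrial ribosomal protein promoters. Of the paralogs, Rpl39l had a run of 7, and Rpl10l and Rpl3l had none. The 6 longest core runs, of 20 to 14 bases, and that of Rpl39l are shown from 10 bases before the start to 20 bases from it, with the run in capitals (that of Rpl7a begins before the stretch shown). Rpl27a lies at chr7:109519185-109519214 (plus strand), Rpl7a at chr2:26910797-26910826 (plus strand), Rpl35 at chr2:39005112-39005141 (minus strand), Rpl15 at chr14:18270967-18270996 (minus strand), Rpl13a at chr7:45128726-45128755 (minus strand), Rpl14 at chr9:120571507-120571536 (plus strand) and Rpl39l at chr16:10170218-10170247 (plus strand).
Rpl27a: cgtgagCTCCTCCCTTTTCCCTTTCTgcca
Rpl7a: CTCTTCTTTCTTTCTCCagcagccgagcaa
Rpl35: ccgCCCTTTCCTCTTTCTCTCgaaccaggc
Rpl15: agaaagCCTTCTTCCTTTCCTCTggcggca
Rpl13a: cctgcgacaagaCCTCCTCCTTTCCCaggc
Rpl14: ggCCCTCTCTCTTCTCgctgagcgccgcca
Rpl39l: aggCCTTTCCggatttccggtggtcgccat
Core promoters with a run of 8 or more had median values of 9.01 and 9.09, those with a run of 5 to 7 had 7.45 and 6.63 (10 promoters), and those with no run 8.88 and 9.20. The ranges of the 3 classes overlapped.

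**Figure D4:**
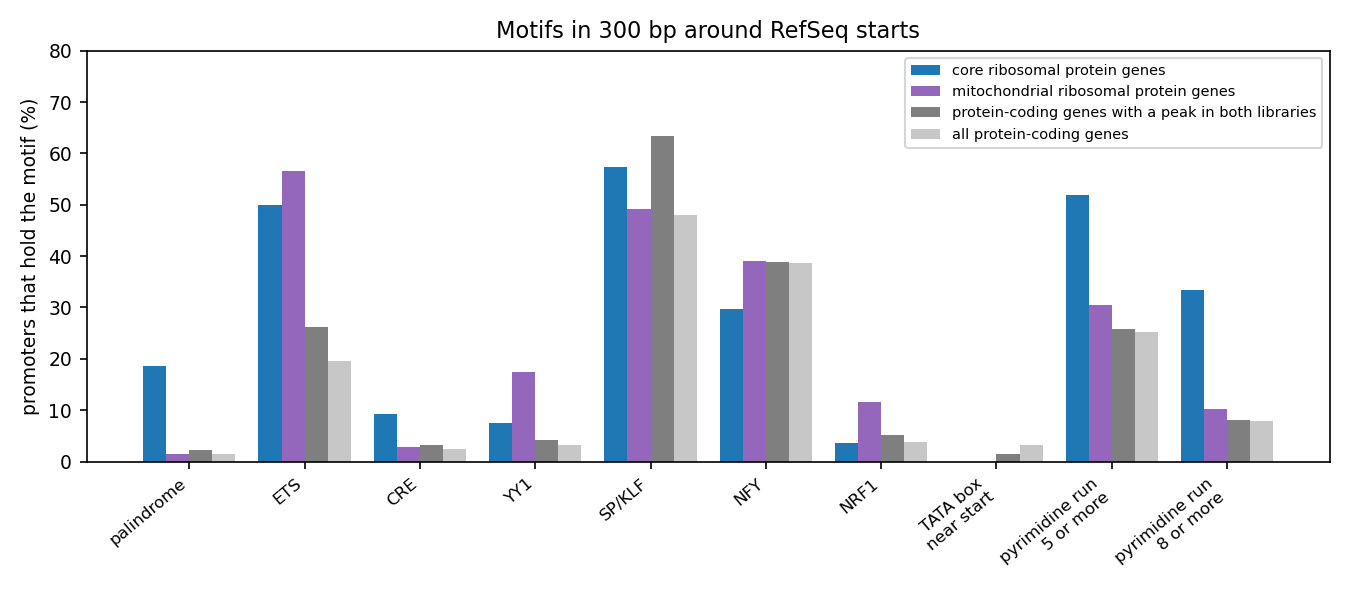
Share of promoters (vertical axis, %) that hold each word or a pyrimidine run (horizontal axis) for core genes (54 promoters), mitochondrial ribosomal protein genes (69), protein-coding genes with a peak in both libraries (11661) and all protein-coding genes (16522). Core promoters have the highest share of the 4 groups for the 8 letters of the palindrome, the cAMP response element and both classes of pyrimidine run.

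Base composition was read from the same promoters. The median observed over expected CpG was 0.643 in the 3 paralog promoters, 0.873 in core promoters, 0.796 in those of the other copies, 0.818 in mitochondrial ribosomal protein promoters, 0.745 in promoters with a peak in both libraries and 0.598 in all promoters. Median GC content was 52.7%, 57.0%, 60.2%, 58.3%, 60.7% and 57.0% in the same order. Composition was measured in the 300 RefSeq bases and not in the wider promoter windows, and its part in the promoter values was not tested.

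Genes of related function were set beside the core. The 6 other cytosolic ribosomal protein genes, whose symbols fall outside the rule (among them Rplp0, Rplp1, Rplp2, Rpsa and Fau), were all open, with medians of 12.7 and 12.1. Rplp0, of the ribosomal stalk, was highest at 20.2 and 18.5. The 14 genes of a textbook list of translation factors and other proteins whose mRNAs are known to begin with a pyrimidine tract were all open, with medians of 12.8 and 12.1, and Npm1, a nucleolar chaperone, had 23.2 and 23.4. All 20 ribosome biogenesis genes were open, at 6.99 and 6.75, as were all 78 mitochondrial ribosomal protein genes, at 6.01 and 5.91. The core medians of 8.04 and 8.17 lay between these lists. Among core genes, 28 contained 54 annotated small nucleolar RNAs, which guide the modification of ribosomal RNA. The medians were 10.3 and 9.66 for these host genes and 7.99 and 7.18 for the 45 core genes without one.

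Core genes were spread over the genome, with 13 on chromosome 7, 7 on chromosome 11, 6 on chromosome 17 and 4 on X. Taking only the 5′ end of each gene left 71 core genes with a peak in both libraries, and 63.99% of all protein-coding genes. Rpl17 and Rps2 had 0 there, because their peaks lay at annotated starts farther into the gene. Leaving out every peak shared with another protein-coding gene left 60 core genes, and 58.2% of all protein-coding genes.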

How the data were processed

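DNase-seq of 2 testis libraries had been processed by the authors before deposit, each library alone on mm10, per the deposited descriptions. They deposited a longer and a shorter peak list whose signal value per peak has no stated normalization, footprints whose only score is a p-value threshold of 0.01 (positions alone were used), and a track of q-values (false discovery rates) that lists values below 0.05. No source used here gives the aligner, the callers or their versions.

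From these, promoter windows of 1000 bp on each side of all annotated starts were overlapped (at least 1 bp, Python 3.11.15 and numpy 2.4.6; the q-value track with bedtools 2.31.1) with peaks and footprints for the 21911 protein-coding genes of GENCODE M21, and the step was tested on simulated data. Motifs were searched in 300 RefSeq bases per gene (GRCm38.p6), the most upstream start where a gene had several. The 8 members without a peak, the paralogs and their core relatives, the 5 highest and 5 lowest core genes, all X-linked core genes, the 3 genes with the most and the fewest footprints, the 3 largest library ratios in each direction, the other copies and the list genes without a peak were named by rule, the rest after their values were seen. Some genes that the rule names are not reported here. Members and lists were chosen with earlier results of these data known. Alternatives are listed in the closing section.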

Additional observations from a re-analysis of the deposited data

How the results depend on the processing

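No paired analysis was possible because the libraries form 1 group. All 73 core genes kept a peak in both libraries in windows of 500 or 2500 bp, in the shorter list, among peaks at or above the library median and with at least 0.5 of the peak inside the window. The share of all protein-coding genes, 68.7%, was 67.2, 71.7, 63.4, 61.4 and 68.5% in these settings. At the 5′ end alone 71 core genes did (all genes 63.99%), and without shared peaks 60 (all genes 58.2%). The core median (8.11) was 7.56 at the 5′ end alone, 7.30 without shared peaks and 9.44 as a sum of peak values. The autosomal core median (8.55) was 7.77, 7.56 and 9.78 under the same settings, and the X-linked one (3.04) was 4.13 as a sum. Median core footprints (9.5) were 8.5 at the 5′ end alone and 6 when counted in peaks only. The pseudogene count of 18 was 9 in windows of 500 bp, 43 in windows of 2500 bp, 9 in the shorter list and 9 among stronger peaks. Leaving out 1 library gave 8.04 to 8.17 for the core median, 1.90 to 2.19 for paralogs, 2.93 to 3.15 for X-linked and 8.49 to 8.60 for autosomal core genes. It gave 22 to 26 open pseudogenes, and 9 to 10 core and 4 to 5 paralog footprints. By gene, 7 promoter values were lower beyond the spread between libraries at the 5′ end alone, 15 without shared peaks. As a sum of peak values 34 of 89 were higher, and in windows of 2500 bp 5 were, where Rpl36-ps4 gained a peak (0.351). The causes were not tested. Depth in reads is unknown, so a missing peak does not show closed chromatin.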
